A study of Mus musculus with 16 samples.

Results

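Among the 8 irradiated B16F10-GP melanomas of this series, 5 libraries held high counts of the skin keratins Krt5, Krt10 and Krt14 and 3 held next to none, and the transcripts that came with the keratins are described here. The 5 libraries with skin transcripts were 5 Gy replicates 2 and 4 and replicates 2, 3 and 4 of 5 Gy with QH-II-066 (called combined below). The 3 with next to none, called without skin transcripts below, were 5 Gy replicates 1 and 3 and combined replicate 1. The series has 16 libraries. The members were selected on these keratin counts, so the contrast of 5 with 3 is a description and carries no test. The labels call the samples tumours and say nothing of skin or of dissection, so "skin transcripts" means transcripts of genes known from skin.

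B16F10-GP is a pigmented mouse melanoma line of C57BL/6 origin. Cells in 25% Matrigel were implanted on the flanks of female C57BL/6 mice aged 6 to 8 weeks. The groups, of 4 libraries each, were untreated tumours (vehicle in the treatment protocol), a single X-ray dose of 5 Gy on day 10, QH-II-066 at 10 mg/kg into the peritoneum daily for 7 days from day 10, and both treatments, with radiation in the morning and QH-II-066 in the evening. Radiation went to the right flank only, under a layer of bolus. The labels do not say which flank was profiled or whether replicates were separate mice, so a p-value measures only the spread between these libraries, which may be technical.

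Epidermis is a stratified epithelium. Basal keratinocytes on the basement membrane make Krt5 and Krt14, cells that move up switch to Krt1 and Krt10, and the outermost cells build a cornified envelope from proteins encoded largely in the epidermal differentiation complex. Hair follicles make keratins of their own while hair grows, and in mice a sheet of skeletal muscle, the panniculus carnosus, lies under the dermis.

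The sequences upstream of Krt5 and Krt10, which helped select the libraries, and of Lor and Krtdap, of the upper epidermis, are shown because the genes were high in the same 5 libraries. Each is the 250 bases before the start of a RefSeq transcript, on GRCm38.p6 (the assembly behind mm10), 5′ to 3′ on the strand of the gene. Capitals mark TGANTCA, the letters read by AP-1 (Fos and Jun) factors, and TATAAA, the TATA box, each searched on both strands.
Krt5, chr15:101712906-101713155, minus strand: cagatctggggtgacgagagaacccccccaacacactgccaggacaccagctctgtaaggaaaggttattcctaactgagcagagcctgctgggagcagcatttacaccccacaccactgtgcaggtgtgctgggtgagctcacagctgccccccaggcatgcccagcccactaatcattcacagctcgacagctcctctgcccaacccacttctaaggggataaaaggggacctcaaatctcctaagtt
Krt10, chr11:99389365-99389614, minus strand: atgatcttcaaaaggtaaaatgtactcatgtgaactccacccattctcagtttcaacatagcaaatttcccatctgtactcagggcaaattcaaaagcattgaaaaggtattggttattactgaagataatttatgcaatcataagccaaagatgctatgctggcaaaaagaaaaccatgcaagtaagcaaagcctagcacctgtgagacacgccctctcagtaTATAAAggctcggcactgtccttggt
Lor, chr3:92083143-92083392, minus strand: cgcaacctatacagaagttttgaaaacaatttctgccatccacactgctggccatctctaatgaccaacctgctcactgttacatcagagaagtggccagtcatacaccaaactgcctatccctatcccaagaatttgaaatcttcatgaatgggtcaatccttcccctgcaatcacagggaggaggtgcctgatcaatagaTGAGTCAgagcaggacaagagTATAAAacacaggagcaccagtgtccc
Krtdap, chr7:30787655-30787904, plus strand: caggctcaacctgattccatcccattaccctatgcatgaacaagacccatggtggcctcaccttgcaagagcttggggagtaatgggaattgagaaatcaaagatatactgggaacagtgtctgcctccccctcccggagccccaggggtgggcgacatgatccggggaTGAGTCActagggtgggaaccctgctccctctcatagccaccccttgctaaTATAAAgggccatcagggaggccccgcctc
Krt10 held TATAAA 26 bases before its start, and the Krt5 window held neither run of letters. Lor held the AP-1 letters 48 bases and TATAAA 27 bases before its start, and Krtdap held them 81 and 30 bases before. Of the 140 genes called higher with skin transcripts (0.884% of those tested), 94 matched a window by symbol and 18 of these (19.1%) held TGANTCA, among them Ivl, Flg2, Sprr1a, Sbsn, Dmkn and Cldn4. The share was 6.08% among the 11554 tested genes with a window and 7.82% among all 27025 genes of the table. TATAAA stood in 18.1% of called, 8.72% of tested and 14.3% of all genes. GGGTG, letters read by Klf factors, stood in 63.8%, 62.0% and 54.5%. A gene may have several windows, and some, such as those of Sbsn and Krt14, lie inside the longest model of the gene. A match is a run of letters and not a bound site.

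Levels are given as CPM, the counts of a gene relative to its library's total, scaled by the trimmed mean of M values over all 16 libraries. Krt5 stood at 795, 571, 144, 74.2 and 341 CPM in 5 Gy replicates 2 and 4 and combined replicates 2, 3 and 4, the order used below for these 5 libraries. It stood at 0.142, 0.101 and 1.08 CPM in 5 Gy replicates 1 and 3 and combined replicate 1, the order used for the 3. Krt14, its partner, was at 437, 324.5, 388, 38.6 and 199 CPM against 0, 0.101 and 0.649. Combined replicate 3 was the lowest of the 5 and combined replicate 1 the highest of the 3 for each selecting gene. Combined replicate 1 also held traces of Krt77 (2.73 CPM), Krt15 (1.73) and Lor (0.731), which were at 0 in 5 Gy replicates 1 and 3. Not all skin genes went this way: Cdsn was at 0.352 CPM there against 1.21 and 0.776. Such traces lower the fold changes within the combined treatment. Krt10 was at 689, 504, 103, 57.01 and 359.5 CPM against 0.32, 0.27 and 2.25. The highest unirradiated libraries reached 1.99 CPM of Krt5, 1.7 of Krt14 and 0.372 of Krt10. All keratins together took 0.573%, 0.267%, 0.148%, 0.0341% and 0.229% of counts in the 5 libraries and 0.00104% to 0.0011% in the 3.

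**Figure D1:**
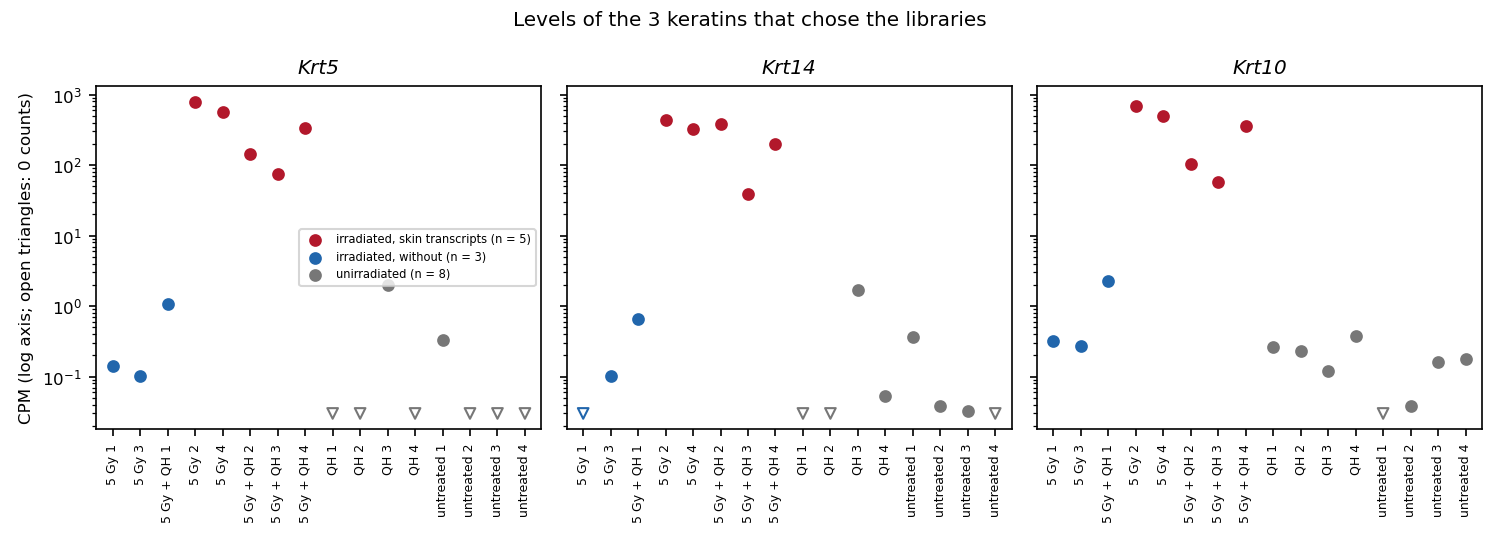
CPM of Krt5, Krt14 and Krt10 (log axis) in 16 libraries, 1 point each, coloured by class, with open triangles for 0 counts. The 5 irradiated libraries with skin transcripts lie at 38.6 CPM or more and the other 11 at 2.25 CPM or less.

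Total counts of the irradiated libraries ran from 6994198 (combined replicate 4) to 40799942 (combined replicate 1). The summed level of 15 melanocyte pigmentation genes was 17300 to 28020 CPM with skin transcripts and 20160 to 21280 without, so the tumour line's own markers overlapped between the classes. In bulk RNA, fewer cells of a type and less RNA per cell cannot be told apart.

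Of 15834 genes tested, 140 (0.884%) were called higher with skin transcripts by edgeR (Benjamini-Hochberg adjusted p under 0.05) and 0 lower. At an unadjusted p under 0.05, 891 were higher and 148 lower, and DESeq2 called 606 higher and 11 lower. These calls only sort genes, since the libraries were selected on keratins. The count rested on single libraries: edgeR called 0 genes without 5 Gy replicate 1, 3 or 4 or combined replicate 1 or 4, 276 without combined replicate 2 and 291 without combined replicate 3. The log2 fold changes of the 140 ran from 2.84 to 12.44 with a median of 7.4, or 7.04 with the 25 genes at 0 counts in the 3 libraries set to a lower bound, against a median of -0.01 over all tested genes. Each of the 5 libraries lay above each of the 3 for all 140, and for 647 tested genes (4.09%). The opposite order held for 145 genes (0.916%).

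Lists of skin genes held 53 of the 140 genes, and 86 were in no list. The epidermal differentiation complex (chr3:90590247-93564643 on mm10) held 21 called of 39 tested genes. The type I keratin cluster (chr11:99279959-100269871) held 4 of 11 and the type II cluster (chr15:101349571-102004342) 4 of 13. Together they held 29 of the 140, and 111 lay elsewhere. Of 54 keratin genes, 23 were tested and 8 called.

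**Figure D2:**
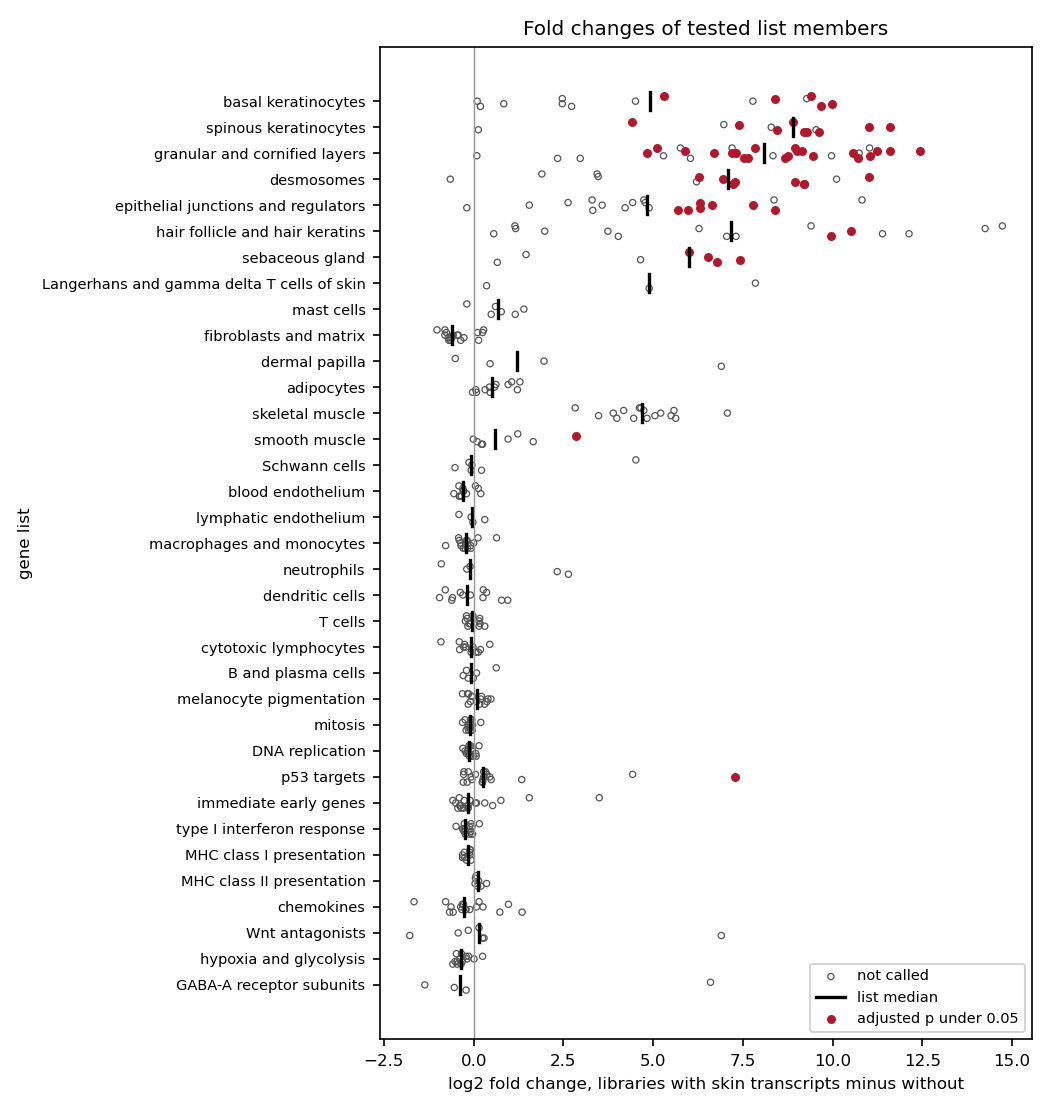
Log2 fold change (libraries with skin transcripts minus without) of each tested member of 35 gene lists; filled points are called genes and bars are list medians. The 7 skin lists have medians of 4.84 to 8.90, and the melanocyte, mitosis and immune lists have medians within 0.21 of 0.

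Basal keratinocyte genes had 5 of 14 tested members called, 10 not overlapping and a median log2 fold change of 4.91. Col17a1, the transmembrane collagen of the hemidesmosome, was at 118, 91.5, 17.5, 15.5 and 54.9 CPM against 0.107, 0.0337 and 0.108, a log2 fold change of 9.39 ± 1.11 (SE). Trp63, the transcription factor that maintains basal cells, was at 64.5, 27.8, 5.33, 5.25 and 28.6 CPM against 0.107, 0.0337 and 0.0812. Lamb3, a chain of basement membrane laminin, was at 2.57 to 14.1 CPM against 0.0675 to 0.32. Some members were present in every tumour: Dst, a cytoskeletal linker, was at 52.5 to 184 CPM against 56.1 to 103.5, and Itga6, an integrin of the hemidesmosome, at 32.7 to 60.8 against 26.8 to 57.5. Without these 2 genes, left out after their values were seen, the list summed to 209 to 1797 CPM with skin transcripts, 10.4 to 12.1 without and 5.62 to 20.6 in unirradiated tumours.

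Spinous genes, of the cells above the basal layer, had 9 of 13 members called and a median of 8.90, or 8.29 with 3 genes at their bound. Krt1, the partner of Krt10, was at 217, 171, 113, 16.2 and 98.7 CPM against 0, 0 and 0.406. Calml3, a calmodulin-like protein of epithelia, had 1824 counts in the 5 libraries and 0 in the 3, at least 443-fold higher with 3 counts over the 3 libraries as the floor. Krtdap, secreted by differentiating keratinocytes, was at 119.9, 104, 52.98, 22.1 and 69.1 CPM against 0, 0.0675 and 1.14. Notch3, a receptor also made by vessel wall cells, overlapped at 3.72 to 17.8 CPM against 3.95 to 16.8.

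Granular and cornified genes had 21 of 32 tested members called (37 in the list), 29 not overlapping and a median of 8.09, or 7.42 with 9 genes at their bound. Of the 37, 14 were at 0 counts in all libraries without skin transcripts, so their testing depended on the libraries selected on keratins. Lor, the main protein of the cornified envelope, was at 69.7, 72.9, 12.4, 13.6 and 103 CPM against 0, 0 and 0.731. Spink5, an inhibitor of skin kallikreins, was at 51.1, 32.4, 15.4, 5.16 and 20.8 CPM in the 5 libraries and at 0 counts in the 3, at least 788-fold higher. Klk7, a kallikrein that cleaves the bonds between cornified cells, was at 80.5, 28.3, 41.5, 4.45 and 34.05 CPM against 0, 0 and 0.162. Asprv1, a protease that processes filaggrin, was at 95.2, 47.7, 67.4, 10.4 and 42.97 CPM against 0.213, 0.304 and 0.325. Abca12, a lipid transporter of the granular layer, overlapped at 34.8 to 51.02 CPM against 34.9 to 48.8. Late cornified envelope and Sprr genes have near-identical neighbours, so their separate counts are uncertain.

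Desmosomes, which join keratinocytes, had 8 of 14 tested members called and a median of 7.10. Dsp, the plakin that ties them to keratin, was at 301, 157, 42.1, 20.6 and 146 CPM against 0.854, 1.05 and 0.757. Pkp2, a plaque protein found in many tissues, was at 14.9, 15.7, 16.3, 13.01 and 27.7 CPM against 22.3, 36.3 and 23.4 and was not called. Epithelial junction and regulator genes had 7 of 20 tested members called and a median of 4.84. Cdh1, the epithelial cadherin, did not overlap but was not called, at 64.6, 32.5, 11.4, 6.32 and 30.9 CPM against 2.67, 2.5 and 3.54. Esrp1, an epithelial splicing regulator, was called at 31.6, 12.8, 4.46, 2.09 and 11 CPM against 0.0356, 0.169 and 0.352. Klf4, a barrier factor also made outside epithelia, was at 60.8, 32.3, 12.9, 8.89 and 24.2 CPM against 9.78, 10.3 and 8.58, so combined replicate 3 lay within the range of the 3. Tfap2a, made by melanocytes too, overlapped at 51.3 to 66.5 CPM against 59.1 to 72.6.

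Sebaceous gland genes had 4 of 7 tested members called. Fa2h, a fatty acid hydroxylase, was at 30.4, 15.3, 3.17, 3.997 and 19.5 CPM against 0.142, 0.135 and 0.108. Scd1, a desaturase present in every tumour, overlapped at 186 to 459 CPM against 90.1 to 251. Without Scd1 the list summed to 9.59 to 71.6 CPM against 0.945 to 1.81. The list of Langerhans and gamma delta T cells of skin had 3 of 7 members tested and 0 called. Epcam, made by Langerhans cells and by epithelia, was at 21.4, 9.23, 3.45, 0.895 and 10.3 CPM against 0.32, 0.574 and 0.0271, with no overlap. Trdc, the constant region of the delta T cell receptor, was at 1.37, 1.18, 0.117, 0.149 and 0.297 CPM against 0.391, 0.574 and 0.541, so 2 of the 5 libraries lay above the 3 and 3 lay below them. Cd207, a Langerhans cell marker that did not pass the filter, was at 2.09, 1.59, 0.274, 0.239 and 0.149 CPM in the 5 libraries and at 0 counts in the 3. Skint1, a keratinocyte gene that selects gamma delta T cells of skin, was at 2.15, 2.2, 0.0783, 0.0298 and 0.595 CPM against 0 counts. Levels under 3 counts are not told from 0, about 0.429, 0.12 and 0.0917 CPM in combined replicates 4, 2 and 3. Cd207 and Trdc in combined replicate 4 and Skint1 in combined replicates 2 and 3 lay under this, so their order is uncertain. All 6 tested mast cell genes overlapped.

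Hair genes differed among the 5 libraries. Krt71, an inner root sheath keratin, was at 426 and 186 CPM in 5 Gy replicate 2 and combined replicate 4 and at 0.44, 0 and 0 in 5 Gy replicate 4 and combined replicates 2 and 3. In the same orders Krt25, its type I counterpart, was at 309.9 and 128 and at 0.372, 0 and 0 CPM. Tchh, a matrix protein of the inner root sheath, was at 332.5 and 152 and at 0.879, 0.235 and 0.149 CPM. Hoxc13, a regulator of hair keratins, was at 10.2 and 4.16 and at 0.845, 0.0392 and 0.0298 CPM. These genes were thus high in 2 of the 5 libraries. The hair list summed to 2369, 180.3, 145, 47.8 and 1101 CPM in the 5 libraries and 16.9, 19.3 and 29.3 in the 3. Of 16 tested members (34 in the list) Krt17 and Krt79 were called, with a median of 7.18 over the 16, or 6.82 with 4 genes at their bound. Krt17, of the outer root sheath and of stressed epidermis, was at 273, 68.3, 106, 11.3 and 131 CPM, and Krt79, of the follicle opening, at 181, 57.05, 13.9, 8.74 and 77.2.

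Combined replicate 2 held a different set of keratins. Krt16, Krt6a, Krt6b and Il1b were chosen after their values were seen. Its Krt10 level was 0.222 of its Krt14 level per kilobase of transcript, and this ratio of levels was 1.24 to 1.52 in the other 4 libraries. The ratio of Krt5 to Krt14 was low there too, at 0.298 against 1.38 to 1.54. Krt14 was thus high relative to both keratins. Krt16, a keratin of wounded epidermis, was at 221 CPM there and 0.179 to 3.85 in the other 4. Krt6a and Krt6b, its partners, were at 162 and 158 CPM there, against 2.21 to 27.2 and 0 to 0.0676. As near-identical neighbours their counts may be divided wrongly. Sprr1b, an envelope precursor, was at 20.3 CPM against 0 to 0.998. S100a8, an alarmin of neutrophils and stressed keratinocytes, was at 33.8 CPM against 0.297 to 1.06, and S100a9, its partner, at 37.4 against 1.09 to 2.83. Other neutrophil genes differed in direction. Cxcr2, a chemokine receptor of neutrophils, was at 1.02 CPM there against 0 to 0.44, and Mmp9, a protease of neutrophils and other cells, at 5.95 against 3.31 to 5.5. Csf3r, the neutrophil growth factor receptor, was at 4.42 CPM, within the 3.94 to 10.5 of the other 4. Il1b was at 12.7 CPM against 2.24 to 3.45. Krt15, of basal cells, lay the other way at 8.38 CPM against 57.96 to 280, as did the suprabasal keratin Krt77 at 12.1 against 49.5 to 696.

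**Figure D3:**
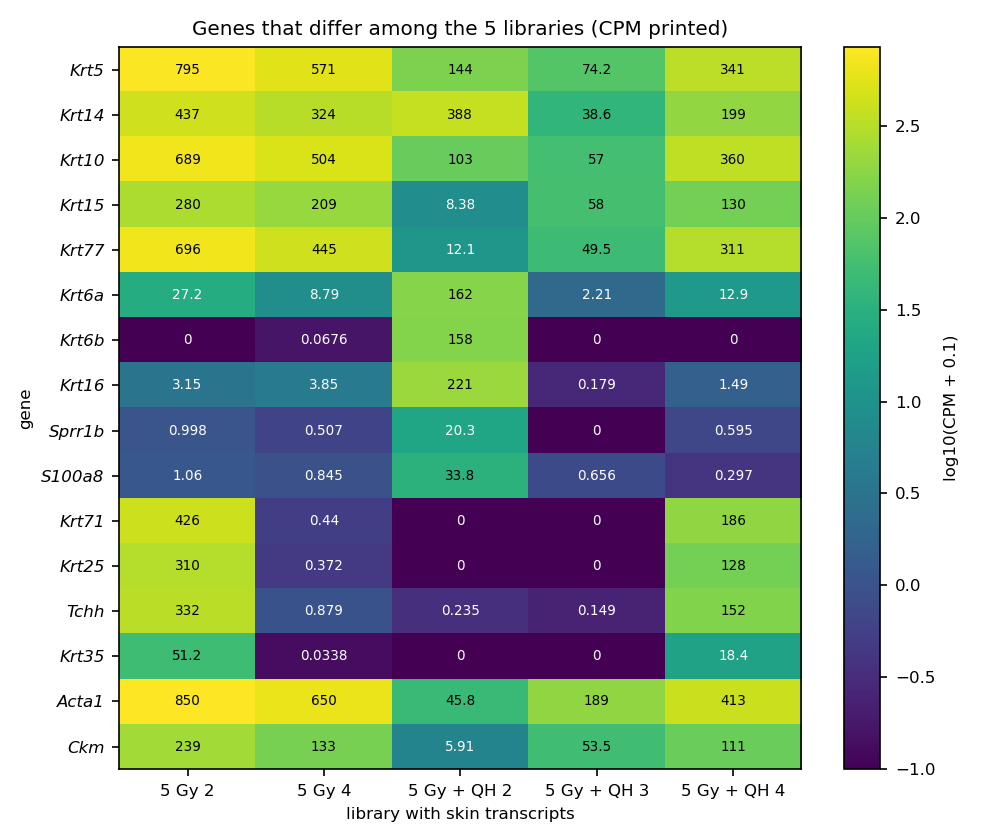
CPM, printed and coloured as log10(CPM + 0.1), of 16 genes (rows) in the 5 libraries with skin transcripts (columns). Krt71 and Krt25 are high in 5 Gy replicate 2 and combined replicate 4, and Krt6a, Krt16 and S100a8 are highest in combined replicate 2.

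The skeletal muscle list had 0 called of 16 tested members and 7 not overlapping, with a median log2 fold change of 4.70. It summed to 3360, 2215, 146, 762 and 1577 CPM in the 5 libraries and 134, 10.2 and 13.3 in the 3. Combined replicate 2 was close to 5 Gy replicate 1, which had no skin transcripts, and unirradiated QH-II-066 replicate 4 reached 1618 CPM. Acta1, skeletal muscle actin, was at 850.1, 650.1, 45.8, 189 and 413 CPM against 25.2, 0.641 and 0.189. Des, the muscle intermediate filament desmin, was called from the smooth muscle list, at 100.1, 84.2, 27.8, 35.8 and 60.1 CPM against 9.25, 7.36 and 9.12, a log2 fold change of 2.84 ± 0.44 (SE). Another 8 called genes outside the lists are known from striated muscle (Hspb7, Pdlim3, Klhl41, Myo18b, Smpx, Asb5, Sln and Lmod2, picked out after the calls were seen). Klhl41, a sarcomere protein, was at 26.8, 27.1, 2.66, 5.61 and 13.4 CPM against 0.569, 0.236 and 0.0541. With a muscle score as a covariate edgeR called 0 genes, and the 140 had a median log2 fold change of 5.28. The part of muscle in the other calls was not tested.

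**Figure D4:**
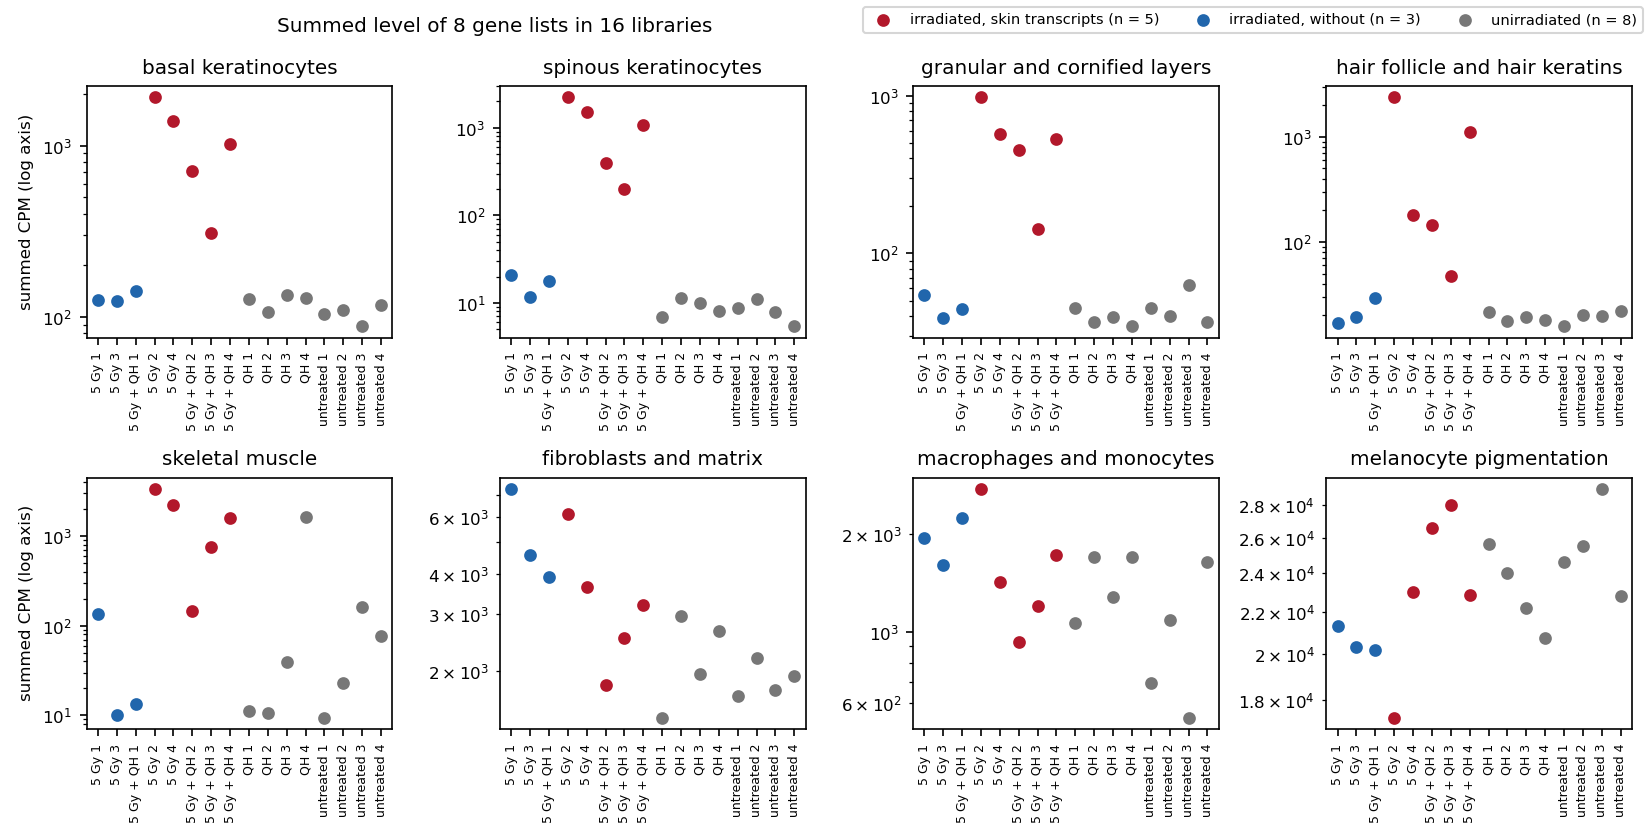
Summed CPM of 8 gene lists (log axes) in 16 libraries, 1 point each, coloured by class. The epidermal and hair sums of the 5 libraries lie above all others, the muscle sum of combined replicate 2 (146) lies near that of 5 Gy replicate 1 (134), and macrophage and pigmentation sums overlap.

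Called genes outside the lists included Psapl1, a saposin-like gene, at 79.5, 38.99, 9.09, 7.85 and 39.2 CPM against 0, 0 and 0.0541. Il1f5, the interleukin-36 receptor antagonist, had 821 counts against 0, at least 191-fold higher. Lipm, an epidermal lipase, had 663 counts against 0, at least 162-fold higher. Chit1, a chitinase best known from macrophages, was at 17.6, 11.2, 3.02, 1.64 and 9.22 CPM against 0, 0 and 0.0271, while the macrophage list had 0 calls of 16 and a median of -0.21. Oas1f, of the oligoadenylate synthetase family, was at 7.83, 7, 1.53, 0.984 and 5.35 CPM against 0, 0 and 0.0812, while the interferon response list had 0 calls of 17 and a median of -0.23. Anxa8, an annexin, was at 139, 100.1, 16.8, 22.5 and 60.8 CPM against 1.03, 0.439 and 0.731. Nectin1, an adhesion receptor, was at 23.2, 10.7, 3.92, 1.97 and 10.1 CPM against 1.42, 1.42 and 2.06 and overlapped.

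For 124 of the 140 genes each of the 5 libraries lay above each of the 8 unirradiated ones. The other 16 were reached by unirradiated tumours. QH-II-066 replicate 4 was the highest of these for 9 genes (Des, Tuba8, Hspb7, Pdlim3, Klhl41, Myo18b, Smpx, Asb5 and Lmod2), with Des at 64.2 CPM. QH-II-066 replicate 3 was the highest for 7 (Cldn4, Ly6d, Wnt4, Cdsn, Cidea, Fcgbp and Aldh3b2). Cldn4, a claudin of tight junctions, was at 7.58 CPM there and 0.626 to 16.1 in the 5.

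Radiation response genes included members that skin also makes. The p53 target list summed to 1306, 1031, 1076, 961 and 1061 CPM in the 5 libraries and 745, 930.3 and 929.5 in the 3, with no overlap. Perp, a p53 target and desmosomal protein, was its 1 called member of 20, at 317, 135, 70.4, 29.5 and 168 CPM against 0.569, 0.439 and 1.7. Sfn, a p53 target abundant in keratinocytes, was at 158, 67.9, 67.7, 10.1 and 76.3 CPM against 1.78, 2.9 and 5.82 and was not called. Without Perp and Sfn, left out after their values were seen, the sums overlapped at 817 to 938 and 743 to 927 CPM. Cdkn1a, the p53-induced cell cycle inhibitor, was at 186, 176, 185, 182.5 and 167 CPM against 172, 246 and 189.7. Mki67, the proliferation marker, overlapped at 282 to 309 CPM against 279.5 to 359, and Pmel, a melanosome protein, at 3696 to 6133 against 4107 to 5012.

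Of 7 tested Wnt antagonists 0 were called. Wif1 was at 5.86, 0.981, 0.157, 0.119 and 1.93 CPM against 0.0356, 0 and 0, and Sfrp2 lay the other way at 8.04, 2.3, 0.392, 3.67 and 6.25 against 11.8, 15.2 and 15.1. Of 16 GABA-A receptor subunits 4 were tested and 0 called. Gabrp, a subunit found in epithelia, was at 5.33, 0.676, 0, 0.149 and 0.892 CPM against 0, 0 and 0.0271.

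Fibroblast and matrix genes had 0 calls of 18, with 14 below 0 and a median of -0.59, and all 18 overlapped between the classes. The median was -0.19 within 5 Gy and -0.57 within the combined treatment. It was -0.88 without 5 Gy replicate 2 and -0.22 without 5 Gy replicate 1. Col1a1, the chain of type I collagen, was at 889, 455, 162, 288 and 470.2 CPM against 1165, 555 and 472, and Col3a1, of type III collagen, at 1258, 641, 189, 304 and 582 against 1456, 931.5 and 718. The smallest edgeR adjusted p of any lower gene was 0.0847. Cthrc1, a secreted protein of matrix-forming cells, was at 7.58, 2.16, 2.39, 3.22 and 4.61 CPM against 15.2, 11.8 and 14.8, a log2 fold change of -1.81 ± 0.40 (SE). Igfbp3, a growth factor binding protein, was at 111, 105, 90.96, 104 and 155 CPM against 264, 195 and 168, and Mgp, matrix Gla protein, at 18.9, 14.3, 15.2, 24.4 and 24.2 against 30.4, 34.6 and 78.3. Each of the 5 lay below each of the 3 for these 3 genes and for 145 tested genes (0.916%) in all. The 3 are the lower genes of smallest p in this contrast, a choice that favours such an order.

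Treatment and skin class were crossed unevenly, with 2 libraries of each class after 5 Gy and 3 against 1 after the combined treatment, where the lone library is assumed to vary like the others. The log2 fold change of Krt5, which helped select the libraries, was 12.41 within 5 Gy and 7.42 within the combined treatment, as a description. These values rest on low levels without skin transcripts: 0.142 and 0.101 CPM after 5 Gy and 1.08 CPM in combined replicate 1. Of 15 immune and response lists, 10 had a median above 0 within 5 Gy and below 0 within the combined treatment, and 1 the reverse. All medians within the combined treatment share combined replicate 1 as the only library without skin transcripts. The lists are thus not separate observations, and whether treatment changed these differences was not tested by this count. MHC class II genes, of antigen presentation, had medians of 0.69 and -0.57, and T cell genes 0.45 and -0.51. After 5 Gy, MHC class II genes summed to 3728 and 2195 CPM with skin transcripts and 2047 and 1606 without. T cell genes summed to 100.1 and 59.68 CPM against 73.4 and 50.98, which overlap. After the combined treatment the sums were 1487 to 2659 CPM against 3023 in combined replicate 1 for MHC class II genes. For T cell genes they were 47.22 to 75.39 CPM against 83.55. The interaction of skin class and treatment was called for 0 genes by edgeR (502 at an unadjusted p under 0.05) and for 17 by DESeq2. Its smallest p belonged to Vcl, vinculin of cell adhesions, at 3.003 CPM in combined replicate 1 and 22.01 to 77.1 in the other 7 irradiated libraries (log2 interaction 3.26 ± 0.56 SE, edgeR adjusted p = 1.0). Crkl, a signalling adaptor, was at 5.98 CPM there and 24.2 to 45.3 in the others, and Atg9a, of autophagy, at 2.73 and 14.9 to 34.1. Low values of these genes also occurred in unirradiated libraries: in QH-II-066 replicate 1 and untreated replicate 4, Vcl was at 4.53 and 9.97 CPM, Crkl at 11.6 and 13.1 and Atg9a at 5.58 and 9.12.

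**Figure D5:**
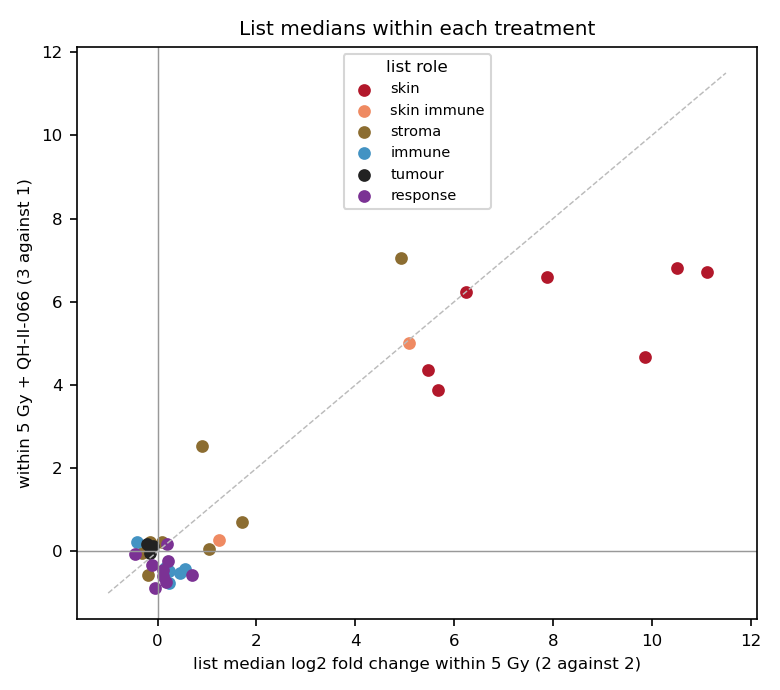
Median log2 fold change (skin transcripts minus none) of 35 gene lists within 5 Gy (x axis, 2 libraries against 2) and within the combined treatment (y axis, 3 against 1), coloured by role; the dashed line marks equal values. The 7 skin lists lie at 3.88 or more on both axes, and 10 of 15 immune and response lists lie right of 0 and below 0.

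Among the 5 libraries with skin transcripts, the combined treatment (3 libraries) was compared with 5 Gy (2 libraries). EdgeR called 0 genes (2004 at an unadjusted p under 0.05, smallest adjusted p = 0.391) and DESeq2 called 43. For Krt5, which helped select these libraries, the log2 difference (combined minus 5 Gy) was -1.88, given as a description and not as a test. Flnc, a filamin of muscle, was at 22.9 and 56.1 CPM after 5 Gy and 5.91 to 9.81 after the combined treatment. Chl1, a neural adhesion molecule, was at 12.7 and 9.81 CPM against 1.67 to 3.42. Keratin shares of counts were 0.573% and 0.267% after 5 Gy and 0.0341% to 0.229% after the combined treatment, and the part of skin content in these differences was not tested.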

How the data were processed

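The data are gene counts of 16 tumour libraries, deposited by the authors as 1 table of raw fragment counts with the exon length of each gene. Per the file headers, featureCounts 1.6.0 counted read pairs with no strand option. Per the submitters' processing notes, STAR 2.4.1a, featureCounts, edgeR and mm10 were used. Without strand, reads of overlapping and antisense genes cannot be told apart. The table holds 46078 genes, and 37 mitochondrial genes have 0 counts.

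The members and gene lists were chosen with earlier results of these data known. R 4.3.3 with edgeR 4.0.16 (trimmed mean of M values, filterByExpr, glmQLFit, adjusted p under 0.05) compared the 5 libraries with the 3, and a model of 4 cells gave the interaction and the treatment contrast. Scripts were tested on simulated data. Named genes were the 3 markers and the up to 4 most abundant and up to 3 most changed called members of each list. The 15 highest called genes were named too. The rule also took the 15 lowest called genes, but 0 genes were called lower. Added to these were the 10 highest called genes outside lists, the 5 smallest p of each other contrast and 12 genes looked up always. Other genes were given values after theirs were seen: Lamb3, Itga6, Notch3, Klk7, Esrp1, Pkp2, Hoxc13, Cd207, Sprr1b, Cxcr2, Cldn4 and Oas1f, Cthrc1, Igfbp3 and Mgp among lower genes, and Klhl41, Krt6a, Krt6b, Krt16 and Il1b. Alternatives included DESeq2 1.42.0, limma 3.58.1 (voom), other scalings, filters, covariates, a replicate block and each library left out.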

Additional observations from a re-analysis of the deposited data

Results flagged for a closer look

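The summed level of the 10 neutrophil genes was 83.01 CPM in combined replicate 2 and 10.08 to 18.77 CPM in the other 4 libraries with skin transcripts, a gap that set that library apart from its class. It was the 1 list of 35 examined with such a library, and chance sets apart about 1 in 20 groups. S100a8 stood at 33.8 CPM and S100a9 at 37.4 CPM there. Without these 2 genes the sum in that library was 11.83 CPM, within the 7.965 to 16.62 CPM of the class. Cxcr2 at 1.02 CPM and Mmp9 at 5.95 CPM were highest of the 5 in that library. In 5 Gy replicate 3, without skin transcripts, Cxcr2 was at 0.81 CPM and Mmp9 at 14.04 CPM.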

How the results depend on the processing

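The count of genes called higher with skin transcripts (140) was 126 with RLE scaling. With scaling factors from genes outside the skin and stroma lists it was 139. No filter gave 163 genes, 101 of them among the 140. The count was 132 with a stricter filter. It was 606 with DESeq2, 627 with limma-voom, 293 at an adjusted p under 0.1, 275 with all 16 libraries in the fit, 383 with treatment as a covariate, 0 with the muscle score as a covariate and 627 in the 5 Gy libraries alone. Leaving out single libraries gave 0 to 291. Genes called lower (0) numbered 11 with DESeq2, 260 with limma-voom, 2 at an adjusted p under 0.1, 2 with all 16 libraries, 1 with treatment as a covariate and 6 in the 5 Gy libraries alone, and 0 to 1 with single libraries left out (1 without 5 Gy replicate 2). The interaction (0) was called for 17 genes by DESeq2 and 3 with no filter, and for 0 to 1 with single libraries left out (1 without combined replicate 4), and could not be fitted without combined replicate 1. The treatment contrast among libraries with skin transcripts (0) gave 43 by DESeq2, 1125 by limma-voom and 11 with no filter, and 0 to 49 with single libraries left out (49 without combined replicate 4). With the replicate block, 0 genes were called higher, 2 for the interaction and 1 for the treatment contrast. Whether equal replicate numbers pair the libraries is not known. Deviations of same-numbered libraries correlated at 0.51, 0.013, -0.136 and 0.327. Those of 5 Gy replicate 3 and combined replicate 1, both without skin transcripts, correlated at 0.707. With skin transcripts, 5 Gy replicate 2 correlated at 0.556 with combined replicate 4 and at -0.0665 with combined replicate 3. Skin class can enter these values, so they cannot decide on pairing. The cause of the changes in the counts of called genes was not tested. The 140 genes kept a positive log2 fold change in each fit that tested them (138 under the stricter filter). This sign was largely fixed beforehand, since each of the 5 libraries lay above each of the 3 for all 140. It is therefore no check on the calls. Of 3552 values of 179 named genes under alternatives, 0 reversed the sign of a called gene. Genes not called were left out of that count of reversals, and some did change sign. Trdc, for example, had a log2 fold change of 0.36 in the main fit and -1.71 within the combined treatment. Combined replicate 4, with 6994198 counts, limits low levels the most.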

Other observations

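An unirradiated tumour, QH-II-066 replicate 3, had higher levels of keratins of simple epithelium than any other library. Krt8 was at 12.6 CPM, Krt18 at 14.9 CPM and Krt19 at 24.5 CPM there, against at most 1.04, 1.47 and 1.67 CPM in the other 15 libraries, and Epcam, an epithelial adhesion molecule, at 5.55 CPM. The same library had an adipocyte list sum of 1442 CPM and Scd1 at 1425 CPM, while its Krt10 was at 0.122 CPM. Another unirradiated tumour, QH-II-066 replicate 4, had a skeletal muscle list sum of 1618 CPM with a spinous list sum of 8.10 CPM.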
